A study of Mus musculus with 2 samples.

Results

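Cell junction, cadherin and keratin genes were described in 2 mouse samples, ES at day 0 and EB at day 4. Neither abbreviation is spelled out in the labels; in stem cell work they usually mean embryonic stem cells and embryoid bodies. The members were chosen by gene symbol, not by signal: claudins, junctional adhesion molecules, tight junction scaffolds, cadherins and protocadherins, alpha and delta catenins, nectins, desmosome and cornified envelope genes, keratins, connexins and pannexins, with Sfn. The rule found 120 genes, measured by 143 probes, among 8102 genes named on a bead array of 46643 probes. There was 1 ES array and 1 EB array. Strain, cell line, medium and the way differentiation was started are not given in the sources used here. No test was possible, so each difference below describes these arrays, and culture, array and day cannot be told apart.

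Epithelial cells are joined side by side by several kinds of contact. Tight junctions seal the gap between cells through claudins and junctional adhesion molecules, which are tied to actin by scaffold proteins. Adherens junctions join cells through cadherins and catenins. Desmosomes join the keratin filaments of neighbouring cells, and gap junctions let small molecules pass between cells. Mouse embryonic stem cells grow as tight, epithelium-like colonies, and a change from epithelial to mesenchymal adhesion is a textbook part of gastrulation, in which cells leave the epithelial epiblast.

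Signals are mean bead intensities, made comparable between the arrays by quantile normalization. Each error is a standard error over the beads of a probe (13 to 69 beads for member probes), so it covers measurement within an array and no variation between cultures. A signal above 230.0, the normalized signal at the detection score limit of 0.99, counted as above the signal floor. A ratio whose dimmer signal fell short of the floor was taken against the floor and is written "at least". The size rule for higher and lower genes was a 2-fold difference, that is 1 or more on the log2 scale for EB minus ES, with detection in 1 sample or both. The probe with the highest mean log2 signal stood for each gene.

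Of the 120 members 37 (30.8%) were above the floor in either array, against 47.7% of all named genes. Of these 37 genes, 25 were above it in both arrays, 7 in ES alone and 5 in EB alone. The remaining 83 were under it in both arrays, with signals from 115 to 220, and no ratio is given for them. By the looser detection condition, an EB score over 0.99 or an unnormalized ES signal over that array's median of 173.9, 52 members were detected. Among these 12 were lower in EB (23.1%) and 4 were higher (7.69%). Over all 5183 detected named genes, 3.99% were lower and 2.78% were higher. The median log2 difference was -0.12 over the detected members and 0.0015 over all detected named genes, and it was -0.0047 over all 120 members. Detection took an unnormalized signal over 173.9 in ES but of at least 225.7 in EB. Dim genes thus entered more readily where ES was the brighter, which leans the medians of detected genes towards lower values in EB. Among the 37 members above the floor 32.4% were lower and 10.8% higher, beside 5.35% and 3.72% of the 3867 named genes above it. At a 1.5-fold limit 14 detected members were lower (26.9%) and 6 higher (11.5%), beside 9.09% and 9.24% of all detected named genes. Over the members above the floor in either array the median was -0.16, against 0.06 over all named genes above it, and over those above it in both arrays it was -0.15, against 0.06. In bulk RNA, fewer cells of a type and less RNA per cell cannot be told apart.

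**Figure D1:**
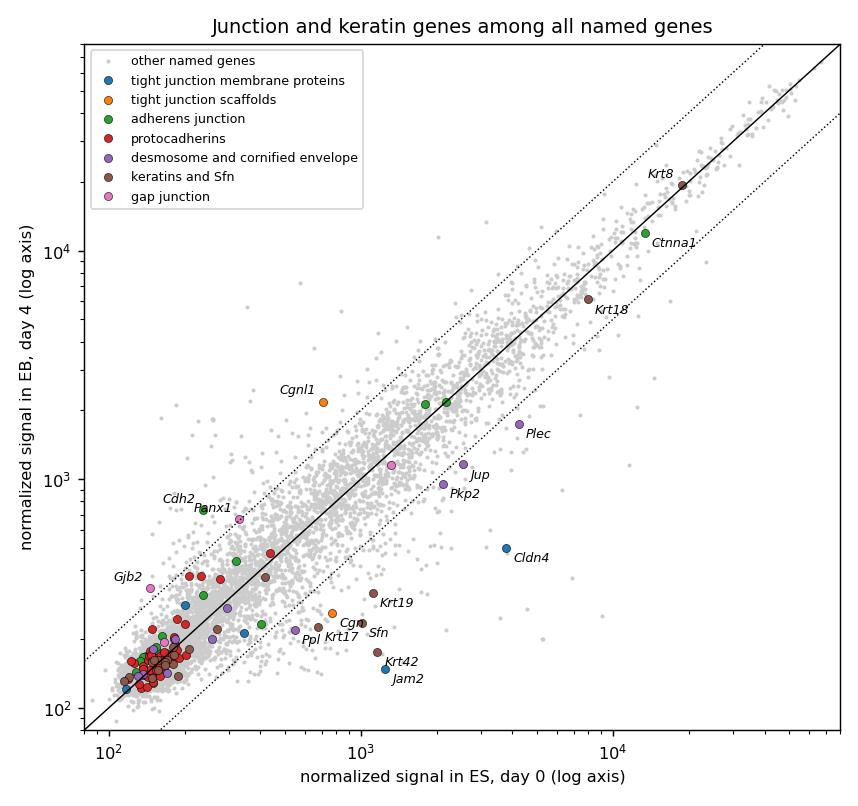
Normalized signals in EB (vertical) against ES (horizontal), both on log axes, with 1 point per named gene. Coloured points are 118 of the 120 members by role, grey points the other named genes, the solid line marks equal signals and the dotted lines a 2-fold difference. The lower members lie below the lower dotted line and the 4 higher ones above the upper, while Krt8, Krt18 and Ctnna1 lie between them.

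The tight junction held the largest differences. Cldn4, a claudin of tight junction strands (identifier scl012740.2_183-S), gave 3764 ± 193 in ES and 502 ± 31.4 in EB. It was 7.5-fold lower in EB (log2 difference -2.91 ± 0.12). Jam2, a junctional adhesion molecule of the immunoglobulin family (identifier scl067374.11_26-S), had 1247 ± 51.1 in ES and 148 ± 12.4 in EB, under the floor. It was at least 5.42-fold lower, and its second probe, at 482 in ES and under the floor in EB, was at least 2.10-fold lower. Both probes of Jam2 were thus above the floor in ES and under it in EB.

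F11r, which encodes the related adhesion molecule JAM-A, had 346 ± 18.7 in ES and 212 ± 14.7 in EB, at least 1.5-fold lower and short of the 2-fold rule. Jam3, another molecule of that family, ran the other way, from under the floor in ES (202) to 282 ± 17.7 in EB, at least 1.22-fold higher. The other 7 of these 11 membrane proteins, all claudins (Cldn2, Cldn10, Cldn14, Cldn17, Cldn22, Cldn34b2 and Cldn34c1), were under the floor in both arrays. Cldn4 was therefore the one of 8 measured claudins with a signal above the floor.

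The scaffold paralogs Cgn and Cgnl1 both passed the size rule, in opposite directions. Cgn, which encodes cingulin, an adaptor between ZO proteins and the actomyosin cytoskeleton, had 771 ± 59.1 in ES and 260 ± 17 in EB, 2.96-fold lower. That value rests on 1 of 3 probes for Cgn, since the other two were under the floor in both arrays. Cgnl1, which encodes the cingulin paralog paracingulin, had 707 ± 31.1 in ES and 2185 ± 119 in EB, 3.09-fold higher (log2 difference 1.63 ± 0.10). The paralogs thus differed from each other in direction by more than their bead-level errors.

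The 250 bases before the start of 7 members are shown. They set the opposed paralogs Cgn and Cgnl1 and the lower genes Cldn4, Krt42 and Sfn beside the keratin pair Krt8 and Krt18. Neither gene of that pair passed the size rule, though Krt18 was 1.30-fold lower in EB. The sequences are from RefSeq (GRCm38.p6), read 5′ to 3′ on the strand of the gene, and none of them was measured here. Capitals mark CACCTG or CAGGTG, the E-box that Snail and Zeb repressors can bind, and AACCNGTT or AACNGGTT, the core of Grainyhead-like factors, which act in epithelia.
Cgn, chr3:94786483-94786732, - strand: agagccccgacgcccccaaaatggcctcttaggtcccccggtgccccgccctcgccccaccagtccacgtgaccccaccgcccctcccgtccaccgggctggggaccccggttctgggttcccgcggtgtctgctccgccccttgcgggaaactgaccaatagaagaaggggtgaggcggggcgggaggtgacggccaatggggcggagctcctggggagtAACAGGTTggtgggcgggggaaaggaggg
Cgnl1, chr9:71771603-71771852, - strand: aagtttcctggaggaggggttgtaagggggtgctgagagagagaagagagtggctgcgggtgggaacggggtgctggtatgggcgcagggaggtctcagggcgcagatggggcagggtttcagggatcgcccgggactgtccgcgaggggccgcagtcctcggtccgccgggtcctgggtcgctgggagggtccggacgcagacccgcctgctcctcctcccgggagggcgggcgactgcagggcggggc
Cldn4, chr5:134946935-134947184, - strand: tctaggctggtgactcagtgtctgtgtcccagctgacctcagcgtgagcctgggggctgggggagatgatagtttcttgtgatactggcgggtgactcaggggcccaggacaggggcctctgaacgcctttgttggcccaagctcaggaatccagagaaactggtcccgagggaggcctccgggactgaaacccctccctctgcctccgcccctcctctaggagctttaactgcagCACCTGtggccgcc
Krt42, chr11:100269952-100270201, - strand: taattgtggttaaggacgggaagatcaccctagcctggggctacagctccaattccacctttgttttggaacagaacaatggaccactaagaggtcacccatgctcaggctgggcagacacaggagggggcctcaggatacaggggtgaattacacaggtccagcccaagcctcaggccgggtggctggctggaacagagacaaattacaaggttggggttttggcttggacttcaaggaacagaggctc
Sfn, chr4:133602169-133602418, - strand: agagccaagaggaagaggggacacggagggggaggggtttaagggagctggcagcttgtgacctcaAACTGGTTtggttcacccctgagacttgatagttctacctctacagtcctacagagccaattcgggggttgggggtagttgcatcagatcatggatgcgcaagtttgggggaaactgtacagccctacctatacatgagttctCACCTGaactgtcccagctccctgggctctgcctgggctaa
Krt8, chr15:102004343-102004592, - strand: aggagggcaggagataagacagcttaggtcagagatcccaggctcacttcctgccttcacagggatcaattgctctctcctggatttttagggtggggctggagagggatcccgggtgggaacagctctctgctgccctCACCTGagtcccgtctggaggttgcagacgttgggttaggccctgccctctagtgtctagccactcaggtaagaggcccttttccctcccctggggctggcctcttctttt
Krt18, chr15:102027966-102028215, + strand: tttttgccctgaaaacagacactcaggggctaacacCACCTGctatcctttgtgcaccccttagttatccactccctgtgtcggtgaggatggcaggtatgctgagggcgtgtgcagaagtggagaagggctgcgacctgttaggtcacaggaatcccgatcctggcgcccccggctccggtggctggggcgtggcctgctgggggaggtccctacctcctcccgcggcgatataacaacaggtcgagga
The E-box letters stood once each in Cldn4, Sfn, Krt8 and Krt18, that is in genes lower by the size rule and in genes short of it alike. The Grainyhead-like letters stood once each in Cgn, 29 bases before the start, and in Sfn, 184 bases before it. On either strand, 17.2% of all 32851 RefSeq promoter windows of this length held the E-box and 1.79% the Grainyhead-like core. Of the 46 members with an entry 14 held the first and 2 the second. These are counts of genes, and the 46 genes had 56 windows, so they are not directly comparable with shares of windows. Of the 5 lower members with an entry (Cgn, Cldn4, Jup, Krt42 and Sfn) 2 held each motif. The E-box also stood in 5 of 7 members above the floor and short of the rule, and in 1 of 3 higher members. The Grainyhead-like core stood in 0 of these 7 and 0 of these 3. The motifs did not overlap in these windows, and a match of letters is a description and not a binding site.

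The keratin genes divided. Krt8 and Krt18 encode the partner keratins of simple epithelia, and their signals were high in both samples. Krt8 had 18736 ± 866 in ES and 19354 ± 922 in EB (log2 difference 0.05 ± 0.10), and Krt18 had 7953 ± 537 and 6115 ± 220, 1.30-fold lower (log2 difference -0.38 ± 0.11). The second probe of Krt8 was under the floor in both arrays. Of the other 5 keratins above the floor 3 were lower in EB by the rule, and Krt10 and Krt6b were not.

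Krt42, a type I keratin (identifier scl068239.1_206-S), had 1161 ± 45.9 in ES and 176 ± 12.1 in EB, under the floor, at least 5.05-fold lower. Its second probe had 458 in ES, was also under the floor in EB and was at least 1.99-fold lower. Krt19, a type I keratin of simple epithelia and trophectoderm, had 1116 ± 87.1 in ES and 320 ± 19.7 in EB, 3.49-fold lower, from 18 and 13 beads. Krt17, a keratin of basal and stressed epithelia, had 676 ± 18.9 in ES and 227 ± 12.4 in EB, just under the floor, at least 2.94-fold lower. All 3 are type I keratins, as are Krt18 and Krt10, which did not pass the rule.

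Sfn, which encodes the epithelial 14-3-3 sigma protein, had 1010 ± 44.0 in ES and 236 ± 8.27 in EB, 4.29-fold lower. That EB signal lay just over the floor, and the second Sfn probe was under it in both arrays. Krt10, a keratin of differentiating epidermis, had 415 ± 25.4 and 374 ± 33.4, a difference within the bead-level error (-0.15 ± 0.16). Krt6b had 268 ± 19.0 in ES and fell short of the floor in EB, which makes it at least 1.16-fold lower. The remaining 15 of 22 keratin genes, among them the hair and epidermal keratins Krt6a, Krt15, Krt72, Krt81 and Krt86, were under the floor in both arrays.

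**Figure D2:**
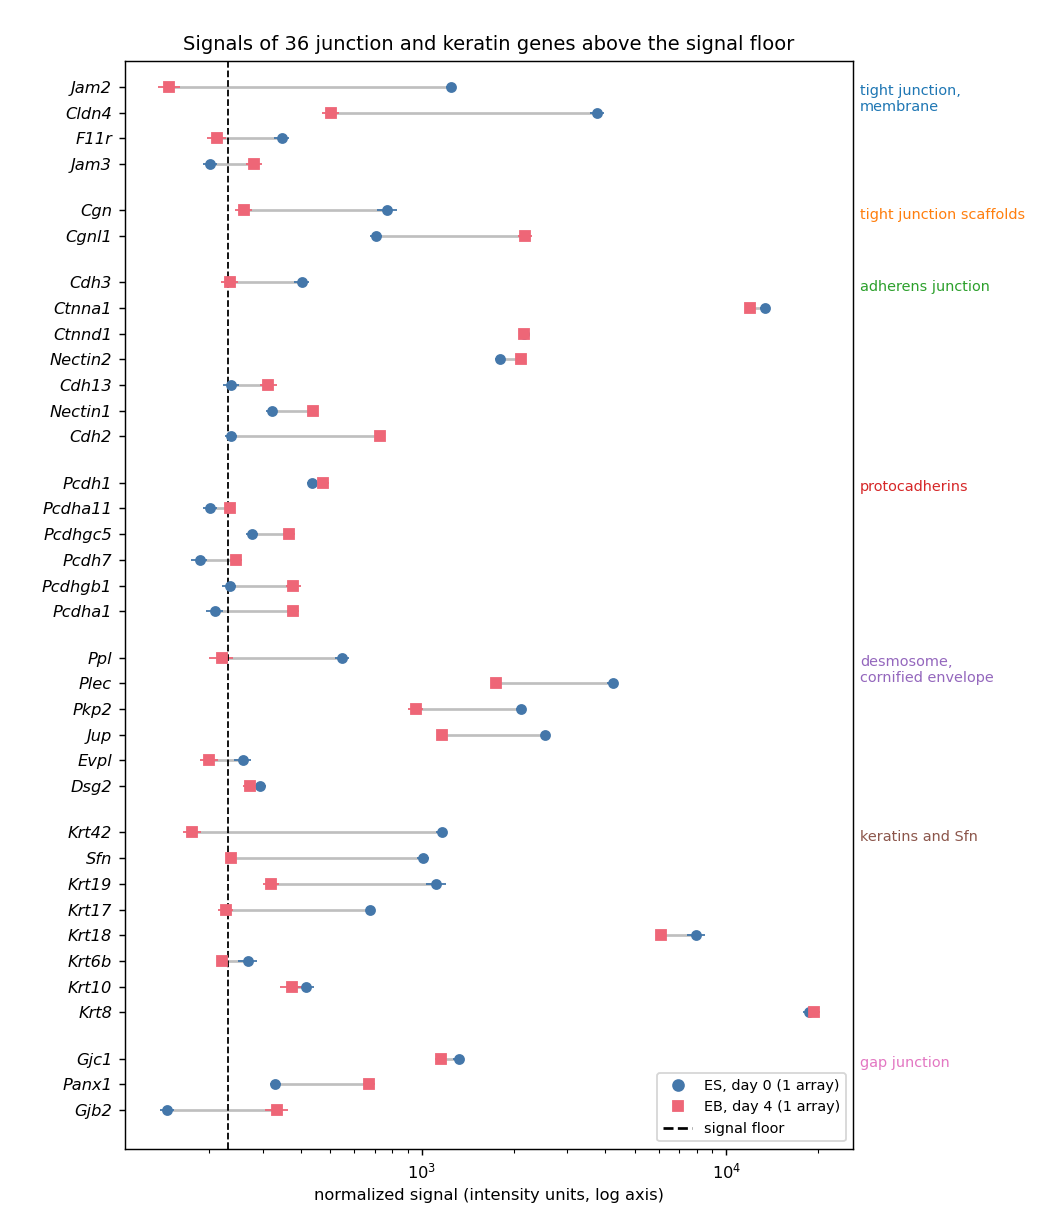
Normalized signals (log axis) of 36 of the 37 members above the signal floor, grouped by role and ordered by difference within a role, with ES as circles and EB as squares; bars are bead-level standard errors and the dashed line is the floor of 230.0. Jam2 and Krt42 end under the floor in EB, Cldn4 and Plec are lower in EB by over 2-fold and stay above the floor, and Krt8 and Ctnnd1 show both points at nearly the same place.

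Of 6 desmosome and linker genes above the floor 4 were lower by the rule and 2 fell short of it. Jup, which encodes plakoglobin, the catenin shared by desmosomes and adherens junctions, had 2539 ± 82.1 in ES and 1164 ± 42.3 in EB, 2.18-fold lower (log2 difference -1.13 ± 0.07). Pkp2, a plakophilin of the desmosomal plaque, had 2115 ± 77.2 and 954 ± 54.1, 2.22-fold lower (-1.15 ± 0.10). Plec, which encodes plectin, a linker of intermediate filaments to other structures, had 4239 ± 186 and 1752 ± 62.1, 2.42-fold lower (-1.27 ± 0.08). These 3 genes thus differed by 2.18- to 2.42-fold, and each kept a signal well over the floor in EB. With 2 bead-level standard errors required past the 2-fold limit, Jup and Pkp2 no longer passed it.

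Ppl, which encodes periplakin, a plakin of desmosomes and the cornified envelope, had 547 ± 27.5 in ES and 220 ± 19.7 in EB, under the floor, at least 2.38-fold lower, and its second probe was at least 1.89-fold lower. Evpl, which encodes its partner envoplakin, went from 258 ± 15.7 to under the floor, at least 1.12-fold lower. Among the desmosomal cadherins, Dsg2, the desmoglein of simple epithelia, had 295 ± 13.5 and 273 ± 14.7, a log2 difference of -0.11 ± 0.10. The other 7 (Dsc1, Dsc2, Dsg1a, Dsg1b, Dsg1c, Dsg3 and Dsg4) were under the floor in both arrays. Evpl and Dsg2 were thus the genes of this role above the floor that did not pass the rule.

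In the adherens junction 1 of 7 genes above the floor, Cdh2, passed the size rule. Cdh2, which encodes N-cadherin of neural and mesodermal cells, had 236 ± 11.1 in ES, just over the floor, and 730 ± 21.0 in EB, 3.10-fold higher (log2 difference 1.63 ± 0.08). Its second probe went from under the floor to 413 ± 21.5, at least 1.79-fold higher, and the third was under the floor in both arrays. Cdh3, which encodes P-cadherin of epithelia and placenta, had 403 ± 23.4 in ES and 234 ± 15.0 in EB, 1.72-fold lower and short of the rule. Cdh13, a cadherin anchored to the membrane by a lipid, had 236 ± 14.1 and 313 ± 20.1, 1.33-fold higher. N-cadherin and P-cadherin thus differed in opposite directions. E-cadherin (Cdh1) was not among the named genes and is not analysed here, and neither are Epcam, Tjp1, Ocln, Dsp and Gja1.

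Ctnna1, which encodes alpha-E-catenin, the link from the cadherin complex to actin, had 13372 ± 472 in ES and 11957 ± 301 in EB (log2 difference -0.16 ± 0.06). Ctnnd1, which encodes p120 catenin, a stabiliser of cadherins at the surface, had 2171 ± 77.1 and 2166 ± 59.9 (-0.0039 ± 0.07), and its second probe gave 0.26 ± 0.08. Nectin2, an immunoglobulin-type adhesion molecule, had 1801 ± 63.9 and 2122 ± 60.3 (0.24 ± 0.07), and its second probe gave -0.21 ± 0.16, so its sign is not settled. Nectin1 had 321 ± 12.4 and 437 ± 12.7, 1.36-fold higher. None of these 4 genes reached the 2-fold rule. The other 10 cadherins measured (Cdh4, Cdh7, Cdh8, Cdh9, Cdh10, Cdh11, Cdh16, Cdh20, Cdh24 and Cdh26), with Ctnna3 and Ctnnd2, were under the floor in both arrays.

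Of 3 gap junction and pannexin genes above the floor 2 were higher by the rule, each narrowly. Gjb2, which encodes connexin 26, went from under the floor in ES (146) to 333 ± 29.2 in EB, at least 1.45-fold higher, from 21 beads in EB. It passed the rule on its measured signals (log2 difference 1.19) and not with signals set to the floor (0.54). Panx1, a pannexin that forms channels in the membrane for ATP release, had 330 ± 13.7 in ES and 670 ± 30.6 in EB, 2.03-fold higher (log2 difference 1.02 ± 0.09). Without quantile normalization Panx1 fell short of the rule at 0.99. Gjc1, which encodes connexin 45, had 1321 ± 51.9 and 1151 ± 46.7 (-0.20 ± 0.08). Gja5 was under the floor in both arrays.

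Protocadherins, cadherin-like adhesion molecules best known from neurons, were mostly under the floor. Of 46 genes 40 were under it in both arrays, and none passed the size rule. Of 15 detected protocadherins 9 had a positive and 6 a negative difference. The 6 negative ones were under the floor in both arrays and counted as detected through their ES signal alone, so this split is not read as a result. The 6 above the floor had differences from 0.12 to 0.85, but 3 of them (Pcdh7, Pcdha1 and Pcdha11) were above it in EB alone, which sets their sign. Pcdha1 went from under the floor in ES (209) to 377 ± 18.3 in EB, at least 1.64-fold higher, and Pcdhgb1 had 233 ± 12.4 and 378 ± 21.3, 1.62-fold higher. Pcdhgc5 had 277 ± 12.2 and 365 ± 16.4, 1.32-fold higher, and Pcdh1, a protocadherin of epithelia, had 436 ± 17 and 474 ± 19.9 (0.12 ± 0.08). The second probes of Pcdha1, Pcdhgb1 and Pcdhgc5 were under the floor in both arrays. Genes of the alpha and of the gamma cluster share their last exons within the cluster, so a probe may read more than the gene it is named for.

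**Figure D3:**
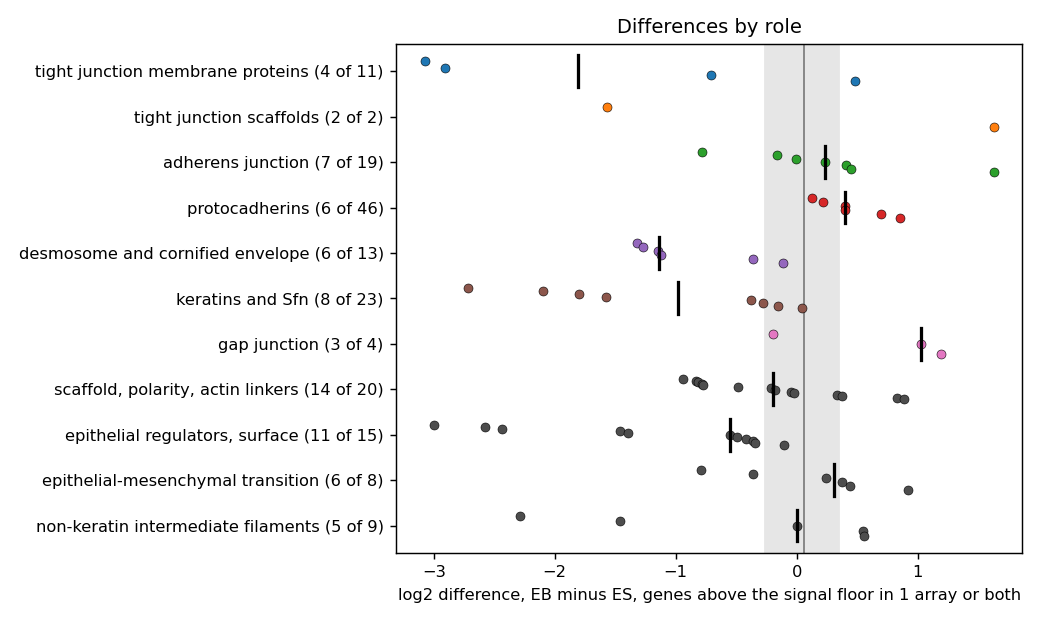
Log2 differences, EB minus ES, of 36 members by role (coloured) and of 4 related gene lists (dark grey), for genes above the signal floor in either array; the label gives how many of how many measured genes are shown, and black bars are medians of 3 genes or more. The 2 members not reported singly are left out. The grey band spans the quartiles of all 3867 named genes above the floor (-0.26 to 0.35, median 0.06). Cldn4, Jam2 and Krt42 lie farthest to the left of the members, and the tight junction scaffolds lie on both sides of 0; a gene above the floor in 1 array alone has its sign set by that filter.

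Partner genes outside the rule were counted from 4 lists. Among 15 detected genes of junction scaffolds, polarity and actin linkage, 0 passed the size rule in either direction, with a median of -0.18. Several came close. The largest difference was that of Plekha7, at -0.94 on the log2 scale by its measured signals. Its signal went from 311 to under the floor, at least 1.35-fold lower. For Marveld3 the brighter probe was 1.78-fold lower (564 in ES, 316 in EB), while the other probe stayed under the floor in both arrays. Afdn, which encodes afadin, the nectin linker to actin, had 6983 in ES and 3958 in EB, 1.76-fold lower. Ezr, which encodes ezrin, had 5223 and 3027, 1.73-fold lower. Mpdz, a scaffold of tight junctions, went from under the floor to 340, at least 1.48-fold higher. Bves also ran upward, from under the floor to 383, at least 1.67-fold higher.

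Among 12 detected epithelial regulators and surface genes, 5 were lower and 0 higher, with a median of -0.52. Itga6 and Itgb4 encode the integrin pair of hemidesmosomes, to which plectin binds. Itga6 had 1421 in ES and 516 in EB, 2.75-fold lower, and Itgb4 had 478 in ES and fell short of the floor in EB, which makes it at least 2.08-fold lower. The other lower genes were the transcription factors Klf4 (at least 5.87-fold), Klf5 (8.0-fold) and Tfap2c (5.42-fold by its brighter probe, with -0.66 on the log2 scale by its second); Klf4 and Klf5 also belong to the pluripotency markers. Grhl2, a Grainyhead-like factor of epithelia, was under the floor in both arrays.

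Of 7 detected genes of the epithelial-mesenchymal transition, 0 passed the rule, with a median of 0.24 and differences of both signs (4 positive, 3 negative). Acta2, which encodes smooth muscle actin, had 419 in ES and 242 in EB, 1.73-fold lower. Zeb1, a repressor of epithelial genes, had 403 in ES and 548 in EB, 1.36-fold higher. Its relative Zeb2 went from under the floor to 415, at least 1.81-fold higher, with a second probe under the floor in both arrays. Among 7 detected genes of non-keratin intermediate filaments, 2 were lower. Lmna, which encodes lamins A and C of the nuclear envelope, had 1071 and 389, 2.76-fold lower (second probe -0.92 on the log2 scale). Nefh, a neurofilament subunit, went from 873 to under the floor, at least 3.79-fold lower.

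Markers of cell types moved between the same arrays. Of 12 detected pluripotency markers 10 were lower in EB. The signals of these 12, all above the floor in either array, summed to 49325 in ES and 5398 in EB. Here and below, the sums include background and signals under the floor, so no ratio is read from them. Of 4 detected markers of streak and mesoderm 4 were higher (summed signal 889 and 5695). These 4 were the named part of 12 listed markers. Other lists were also named in part, such as 12 of 20 for pluripotency and 5 of 20 for endoderm. Of 5 detected trophoblast markers, cells that also make Krt8, Krt18 and Krt19, 3 were higher and 1 lower (3972 and 3665 for the 4 above the floor), and Prl3d1 and Ascl2 were under the floor in both arrays. The higher ones were Eomes, Gata3 and Plac1, and Eomes was also counted with streak and mesoderm. The lower one, Tfap2c, went from 3265 to 602 and made up most of the ES sum. Of 5 endoderm markers Gata4 was higher and Trf lower (1716 and 2075). Of 6 measured fibroblast markers Fbln2 was higher and Col1a1 lower (2967 and 3212), and Col1a2, Col3a1, Dcn and Postn were under the floor in both arrays. Of 4 measured neural ectoderm markers Nes had nearly equal signals (415 and 416), and Ncam1, Pax6 and Six3 were under the floor in both arrays. Of 4 endothelium markers Lmo2 was higher, from under the floor to 1554, at least 6.76-fold. Pecam1 was lower (833 and 329, 2.53-fold). The part of these cell types in the junction and keratin differences was not tested.

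**Figure D4:**
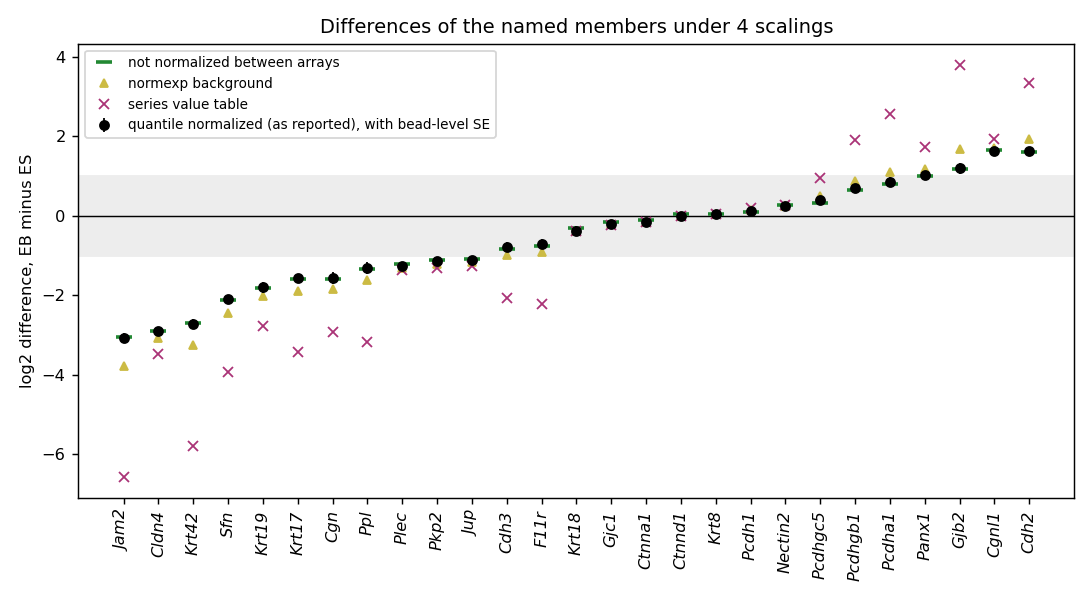
Log2 differences, EB minus ES, of 27 members (among those with at least a 1.5-fold difference and the 3 of highest mean signal in each role) under 4 scalings; black circles are the reported values with bead-level standard errors and the grey band marks differences short of 2-fold. The series value table (crosses) gives larger differences for genes with a signal near the floor, such as Jam2 (-6.58 against -3.07), and nearly the same for bright genes such as Plec (-1.37 against -1.27).

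Among the 12 lower members were Cldn4, Jam2, Cgn, Jup, Pkp2, Plec, Ppl, Krt42, Krt19, Krt17 and Sfn, and the 4 higher ones were Cdh2, Cgnl1, Gjb2 and Panx1. Each of the 16 kept its sign under the 5 other scalings and probe rules tried. Signals set to the floor, normexp before quantile normalization and the series value table keep the order of the signals, so they could not reverse a sign. Only the settings without quantile normalization and with the mean over probes could have done so. In 5 of the 16 the dimmer signal was under the floor. Of 6 members with more than 1 probe above the floor, Cdh2, Jam2, Krt42 and Ppl had probes of the same sign, while Ctnnd1 and Nectin2 did not. Over 391 named genes with a pair of probes above the floor, the probes of a gene differed with a standard deviation of 0.40 (log2), which exceeds the bead-level errors of the 16 genes (0.05 to 0.15).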

How the data were processed

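Total RNA of 1 ES and 1 EB sample was labelled with biotin and hybridised to a bead array of 46643 probes, per the labels. The deposited intensity of a probe is its bead mean, with BeadStudio 2.3.41 normalization set to none, per the file headers. The spread deposited beside it fell with the number of beads (slope -0.44 in ES and -0.47 in EB on log scales, where a standard error gives about -0.5) and was used as a standard error. The deposited detection score exists in the EB file; in ES a raw signal above the array's median of 173.9 counted as detected. The submitters' processing notes name BeadStudio 2, RMA and limma without their roles. The intensity scale, normalization and background of the authors' series value table are not given in the sources used here (medians 16.7 in both columns, values linear). It served as an alternative scaling. Where members had equal normalized signals in ES and EB, their values in it were equal too, so it is no independent measurement.

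Quantile normalization over the 2 arrays and a log2 transform followed (Python 3.11.15, numpy 2.4.6), with no background subtraction, which shrinks differences of dim probes. Normexp (limma 3.58.1, offset 50) was an alternative. The steps were tested on simulated data. A zero-padded number of 10000 or more in a target identifier was taken for an NCBI gene number: 9796 of 11857 such probes (82.6%) matched a RefSeq gene table (GRCm38.p6), and the other probes are unnamed. Arrays of this number limit the precision, and left no replicate to compare. Named are members detected and differing by a log2 of at least 0.585 (1.5-fold), the 3 of highest mean signal in each role, and, in the report, further members above the floor, listed after their values were seen. From the related lists come genes past the size rule and Zeb1, and Plekha7, Marveld3, Afdn, Ezr, Mpdz, Bves, Acta2, Zeb2 and Grhl2, chosen after their values were seen. Values of 2 members are counted but not reported singly here. The members and lists were chosen with earlier results of these data known.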

Additional observations from a re-analysis of the deposited data

How the results depend on the processing

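No paired analysis was possible because either side of the comparison is a single array, and no replicate could be left out. The count of 16 members called (4 higher, 12 lower) remained between 11 and 20, inside 1.5 times, with these exceptions among the settings tried. With the values of the series value table it was 26 (9 higher), all 16 included; of its 10 further genes 9 were above the floor in either array. With a 4-fold limit it was 4 (0 higher, 4 lower). With 2 bead-level standard errors past the limit 2 were higher, without Gjb2 and Panx1, and 10 lower, without Jup and Pkp2. The median of -0.12 over detected members moved by over 0.1 to -0.28 with the series value table, to 0 with signals set to the floor, to -0.0039 with detection in both samples and to -0.0047 without a detection filter, which adds members under the floor; it was -0.16 and -0.15 for members above the floor in either array and in both, and from -0.12 to -0.17 without quantile normalization, with normexp and with the mean over probes. Of the 16 genes, Panx1 was lost without quantile normalization, Gjb2 with signals set to the floor, and Cdh2, Cgn and Sfn with the mean over probes, which includes probes under the floor. Normexp background kept all 16 and added Pcdha1. The filters on the floor in either array or in both were chosen after seeing the data; the latter left 25 members and 11 of the 16.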
